A study of Mus musculus with 15 samples.

Results

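The platelet-derived growth factor (PDGF) system was followed through 7 genes, the ligands Pdgfa, Pdgfb, Pdgfc and Pdgfd and the receptors and receptor-like gene Pdgfra, Pdgfrb and Pdgfrl, in whole lungs of mice that had received bleomycin. The members were the rows of the raw count table whose Ensembl identifier carried 1 of these symbols in the GENCODE M21 annotation, 7 of 33340 genes, and all 7 were among the 17457 genes tested after a filter on low counts. Bulk RNA-seq was carried out on adult male C57BL/6 mice with no engineered allele named in the labels. Bleomycin, a drug that breaks DNA and scars the lung, was given into the trachea at 5 U/kg, and lungs were taken at day 0 (untreated, n = 4), day 7 (n = 4), day 14 (n = 4) and day 21 (n = 3). All groups shared strain and tissue, and no vehicle-treated lung was analysed here, so the drug, the instillation and the time since it cannot be told apart. The labels of day 0 replicate 4 disagree, the title calling it a control and the treatment field naming bleomycin. The series text gives fewer replicates than the titles do at days 0, 7 and 14, so each n printed here rests on the titles. The title was also followed for day 0 replicate 4, and for the 7 PDGF genes values without it are given where they change a call. Genes of the lists were not refitted without it. The labels do not say that the replicates came from separate animals, so the p-values measure the spread between these samples.

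PDGF ligands are dimers that bring receptor chains together and switch on the tyrosine kinase inside the cell. PDGF-A and PDGF-C act mainly through the alpha receptor, PDGF-B binds both receptor chains, and PDGF-D acts mainly through the beta receptor. PDGF-A and PDGF-B are cut by furin-type convertases before they leave the cell, whereas PDGF-C and PDGF-D are secreted with a CUB domain that plasminogen activators and other serine proteases remove. In the lung, the alpha receptor marks fibroblasts and alveolar myofibroblast precursors and the beta receptor marks pericytes and vascular smooth muscle, and the pathway is a drug target in pulmonary fibrosis.

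Libraries held 15652008 to 18020661 counts, and a member gene held 38 to 10574 counts in a library. The lung label was met by the epithelial markers: summed CPM (the count scaled to a common library size after adjustment with TMM factors) of 6 alveolar epithelial genes led by surfactant protein C ranged from 26949 to 37099 at day 0 and from 5200 to 11348 at day 21. Mitochondrial genes took 2.03% to 4.22% of the counts. That share was 2.28%, 2.31%, 4.22% and 4.04% in day 0 replicates 1 to 4, 2.03% to 2.15% in the day 7 libraries, 2.102% in day 14 replicate 1, 3.74% to 4.14% in the other day 14 libraries and 2.66% to 4.01% at day 21.

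With an adjusted p under 0.05 (edgeR quasi-likelihood test, Benjamini-Hochberg) and a fold change over 1.5 both required, 2 of the 7 genes rose by day 7, 2 rose and 1 fell by day 14, and 3 rose by day 21. Over all genes tested, 16.1%, 23.1% and 22.5% were called at these days, with 8.78%, 12% and 12.4% higher and 7.36%, 11.2% and 10.1% lower. Pdgfc and Pdgfrl rose at each of the 3 days, Pdgfrb rose at day 21, Pdgfd fell at day 14, and Pdgfa, Pdgfb and Pdgfra were not called. The median log2 fold change of the 7 genes was 0.26, 0.50 and 0.43 at days 7, 14 and 21, against 0.01, 0.02 and 0.02 over all genes tested. The 3 comparisons share the day 0 libraries. In whole tissue, a change in the number of cells of a type and a change in RNA per cell cannot be told apart.

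**Figure D1:**
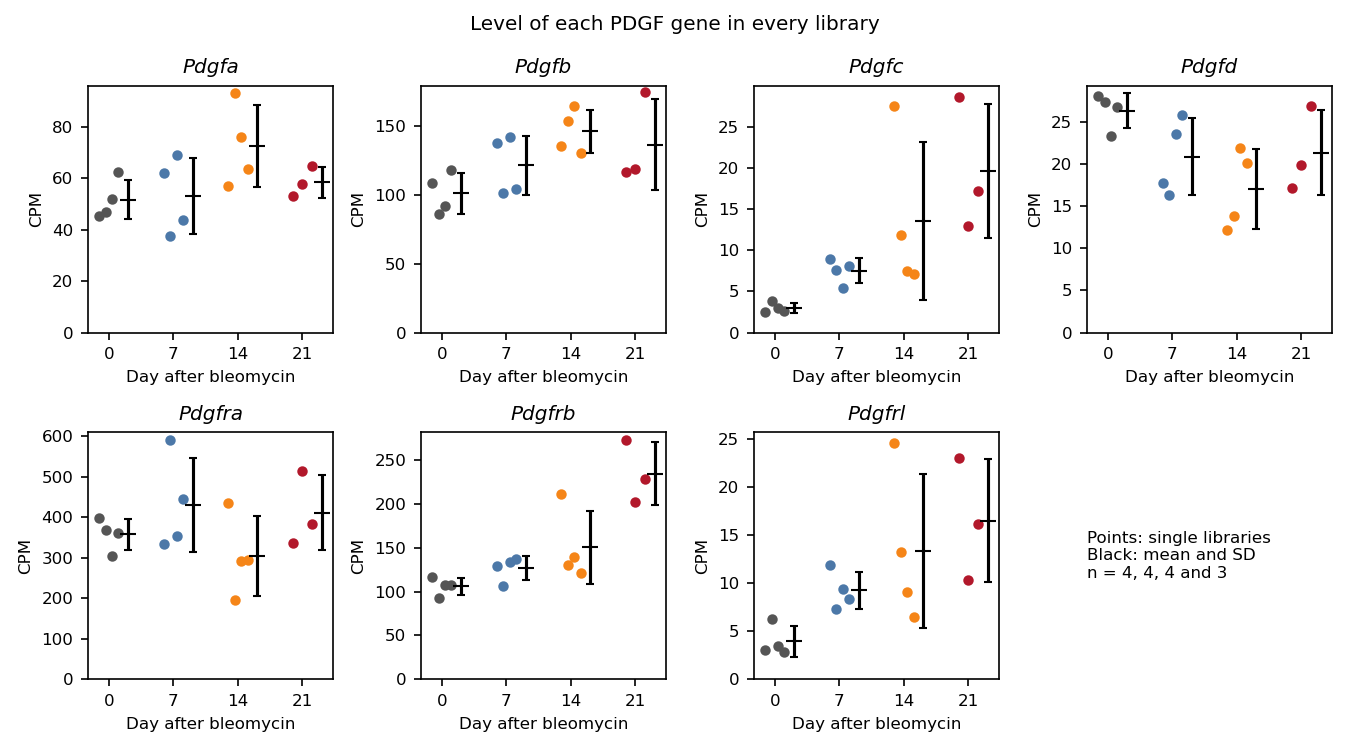
CPM of each PDGF gene (vertical axis, from 0) against day after bleomycin (horizontal axis). Points are single libraries and the black bars are the mean and SD of 4, 4, 4 and 3 libraries. Pdgfc and Pdgfrl lay above their day 0 range in every later library, and Pdgfrb did so at days 14 and 21; 17.6%, 16.8% and 19.4% of all genes tested did so at days 7, 14 and 21.

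Pdgfa (ENSMUSG00000025856, mm10 chromosome 5, 138976014 to 138997370, minus strand) encodes the A chain, a growth signal for alveolar myofibroblast precursors. Its level was 45.5, 46.9, 52.1 and 62.4 CPM in the 4 day 0 libraries, 62.0, 37.7, 69.0 and 43.7 at day 7, 57.1, 93.1, 76.2 and 63.8 at day 14 and 52.9, 57.7 and 64.6 at day 21. Ranges overlapped with day 0 at every time point. Its log2 fold change was 0.04 (SE 0.19, adjusted p = 0.905) at day 7, 0.49 (SE 0.19, adjusted p = 0.0578) at day 14 and 0.18 (SE 0.20, adjusted p = 0.555) at day 21. The exons of Pdgfa share 813 bp with the antisense gene 6330403L08Rik, which held 115 to 242 counts per library. The strand setting of the counting is not given in the sources used here, so reads of this pair may not be told apart.

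Pdgfb (ENSMUSG00000000489, chromosome 15, 79995874 to 80014977, minus strand) encodes the B chain, which endothelial cells, platelets and macrophages make and which recruits pericytes. Its level was 109, 86.0, 92.1 and 118 CPM at day 0, 137, 102, 142 and 104 at day 7, 136, 154, 164 and 131 at day 14, and 116, 119 and 175 at day 21. All 4 day 14 libraries lay above all day 0 libraries, a pattern that 16.8% of all genes tested showed in this direction. At day 14 its log2 fold change was 0.53 (SE 0.16, adjusted p = 0.0176), a fold of 1.44 that stayed under the fold threshold. It was 0.26 (SE 0.16, adjusted p = 0.236) at day 7 and 0.43 (SE 0.17, adjusted p = 0.0648) at day 21. Without day 0 replicate 4, the day 14 value was 0.59 (adjusted p = 0.0168) and passed both thresholds. Its adjusted p rose to 0.0647 without day 0 replicate 2, to 0.0535 without day 0 replicate 3 and to 0.0766 among the libraries with a mitochondrial share over 3.5%.

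Pdgfc (ENSMUSG00000028019, chromosome 3, 81036416 to 81214040, plus strand) and Pdgfd (ENSMUSG00000032006, chromosome 9, 6168584 to 6378850, plus strand) encode the ligands with a CUB domain. At day 14 Pdgfc was called higher, as was Pdgfrl, and Pdgfd was called lower. The 250 bases before the RefSeq start of each (GRCm38.p6, plus strand) are shown because SMAD factors, which carry TGF-beta signals, bind the letters CAGAC, and the Pdgfc and Pdgfd windows each held 2 matches over both strands, in capitals. The Pdgfc window is chr3:81036166-81036415 and the Pdgfd window is chr9:6168236-6168485.
Pdgfc: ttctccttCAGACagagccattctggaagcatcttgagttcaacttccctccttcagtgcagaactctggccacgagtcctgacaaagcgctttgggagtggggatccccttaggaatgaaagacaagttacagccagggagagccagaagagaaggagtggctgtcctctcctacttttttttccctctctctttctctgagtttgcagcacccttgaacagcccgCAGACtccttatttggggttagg
Pdgfd: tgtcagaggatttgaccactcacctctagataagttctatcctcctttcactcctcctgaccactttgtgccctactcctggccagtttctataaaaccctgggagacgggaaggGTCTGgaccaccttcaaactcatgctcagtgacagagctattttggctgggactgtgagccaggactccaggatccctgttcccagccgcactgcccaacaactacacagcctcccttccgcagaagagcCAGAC
Over the 250 bases before the start in 32851 RefSeq promoter entries, CAGAC or its reverse complement GTCTG occurred at least 1 time in 42.2% and at least 2 times in 11.7%. Of the other PDGF genes, the Pdgfra window held 1 match and both Pdgfa windows held 0. Pdgfb, Pdgfrb and Pdgfrl had no entry in the promoter table used here. The Pdgfd window also held TATAAA, which 12.4% of all windows hold on either strand, apart from the capitals, and the Pdgfc window held none. Neither the Pdgfc nor the Pdgfd window held the GC box letters GGGCGG (32.7% of all windows) or the AP-1 letters TGANTCA (6.75%). A match is a description of the letters and not a measured site.

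Pdgfc was the lowest PDGF gene at day 0 and had the largest fold change of the 7 genes at days 14 and 21. It was at 2.46, 3.81, 3.04 and 2.62 CPM at day 0 and at 8.94, 7.58, 5.38 and 8.08 at day 7. It was at 27.6, 11.9, 7.54 and 7.18 CPM at day 14 and at 28.7, 13.0 and 17.2 at day 21. No later library reached down to the day 0 range; 17.6%, 16.8% and 19.4% of all genes tested showed such an upward separation at days 7, 14 and 21. Day 14 was uneven, with replicate 1 far above the others (SD 9.59 around a mean of 13.5, against 1.52 around 7.49 at day 7).
The log2 fold change was 1.33 (SE 0.39, adjusted p = 0.0237) at day 7, 2.18 (SE 0.40, adjusted p = 0.000722) at day 14 and 2.71 (SE 0.42, adjusted p = 0.000233) at day 21, or 2.51-fold, 4.53-fold and 6.56-fold. The rise at day 14 was 1.55 (adjusted p = 0.00111) without day 14 replicate 1. The call at day 7 was lost without day 0 replicate 4 (1.25, adjusted p = 0.0688) or without day 0 replicate 1, day 0 replicate 3 or day 7 replicate 1 (adjusted p 0.0559 to 0.0679), and with limma voom (adjusted p = 0.0666). When the mitochondrial share entered the fit as a covariate, the day 7 value was 0.91 (adjusted p = 0.212), and among the libraries with a share under 2.5% it was 1.24 (adjusted p = 0.0185).

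Pdgfd was at 28.0, 27.3, 23.3 and 26.7 CPM at day 0, at 17.8, 16.3, 23.5 and 25.8 at day 7, at 12.2, 13.8, 21.8 and 20.1 at day 14 and at 17.2, 19.9 and 26.9 at day 21. All 4 day 14 libraries lay below all day 0 libraries, as 14.4% of all genes tested did, while the ranges at days 7 and 21 overlapped with day 0. Against day 0, Pdgfd differed on the log2 scale by -0.34 (SE 0.20, adjusted p = 0.232) at day 7, -0.63 (SE 0.20, adjusted p = 0.0249) at day 14 and -0.30 (SE 0.22, adjusted p = 0.320) at day 21. The day 14 call was lost without day 14 replicate 1 (-0.52, adjusted p = 0.0626) or replicate 2 (-0.56, adjusted p = 0.0659), among the libraries with a mitochondrial share over 3.5% (-0.44, adjusted p = 0.187), and with glmTreat, which tests for a fold over 1.5 (adjusted p = 0.683).

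Pdgfra (ENSMUSG00000029231, chromosome 5, 75152292 to 75198215, plus strand), the alpha receptor, was the member with the highest CPM at every day. It was at 397, 369, 305 and 361 CPM at day 0, at 333, 589.6, 353 and 445 at day 7, at 436, 195, 293 and 295 at day 14 and at 335, 515 and 384 at day 21. Ranges overlapped at all days, and the libraries of a later day spread more than those of day 0 (coefficient of variation 27.2%, 32.6% and 22.6% against 10.8%). The log2 fold change was 0.26 (95% interval -0.21 to 0.74, adjusted p = 0.412) at day 7, -0.23 (-0.71 to 0.25, adjusted p = 0.459) at day 14 and 0.20 (-0.31 to 0.72, adjusted p = 0.571) at day 21. A rise past the fold threshold lies within the intervals at days 7 and 21, as does a fall past it at day 14, while the opposite change of that size lies outside each of them.

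Pdgfrb (ENSMUSG00000024620, chromosome 18, 61045150 to 61085061, plus strand), the beta receptor of pericytes and smooth muscle, was at 116, 93.1, 107 and 107 CPM at day 0 and at 129, 107, 134 and 137 at day 7. It was at 211, 130.3, 139 and 121 CPM at day 14 and at 273, 202 and 229 at day 21. Day 7 overlapped with day 0, while all libraries of days 14 and 21 lay above it, as in 16.8% and 19.4% of all genes tested. The log2 fold change was 0.26 (SE 0.16, adjusted p = 0.252) at day 7, 0.50 (SE 0.16, adjusted p = 0.0241, a fold of 1.42 under the threshold) at day 14 and 1.15 (SE 0.17, adjusted p = 0.000186, a fold of 2.21) at day 21. The day 14 value was 0.27 (adjusted p = 0.108) without day 14 replicate 1 and 0.60 (adjusted p = 0.0126, called) without day 14 replicate 4.

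Pdgfrl (ENSMUSG00000031595, chromosome 8, 40926212 to 40990785, plus strand) encodes a secreted protein that resembles the ligand-binding part of the beta receptor and has no kinase. Its level was 3.04, 6.28, 3.49 and 2.84 CPM at day 0, 11.9, 7.30, 9.38 and 8.32 at day 7, 24.6, 13.3, 9.03 and 6.51 at day 14 and 23.0, 10.3 and 16.1 at day 21. Every later library lay above every day 0 library (17.6%, 16.8% and 19.4% of all genes tested at days 7, 14 and 21), and day 14 replicate 1 was again the highest of its day. The log2 fold change was 1.24 (SE 0.38, adjusted p = 0.0288), 1.77 (SE 0.39, adjusted p = 0.00266) and 2.07 (SE 0.41, adjusted p = 0.00143) at days 7, 14 and 21, or 2.35-fold, 3.40-fold and 4.20-fold. The day 7 call was lost without day 0 replicate 4 (1.08, adjusted p = 0.0914), without day 0 replicate 1 or 3 or day 7 replicate 1 or 3 (adjusted p 0.0516 to 0.0887), with the mitochondrial covariate (0.82, adjusted p = 0.230) and among the libraries with a share under 2.5% (0.96, adjusted p = 0.0625).

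**Figure D2:**
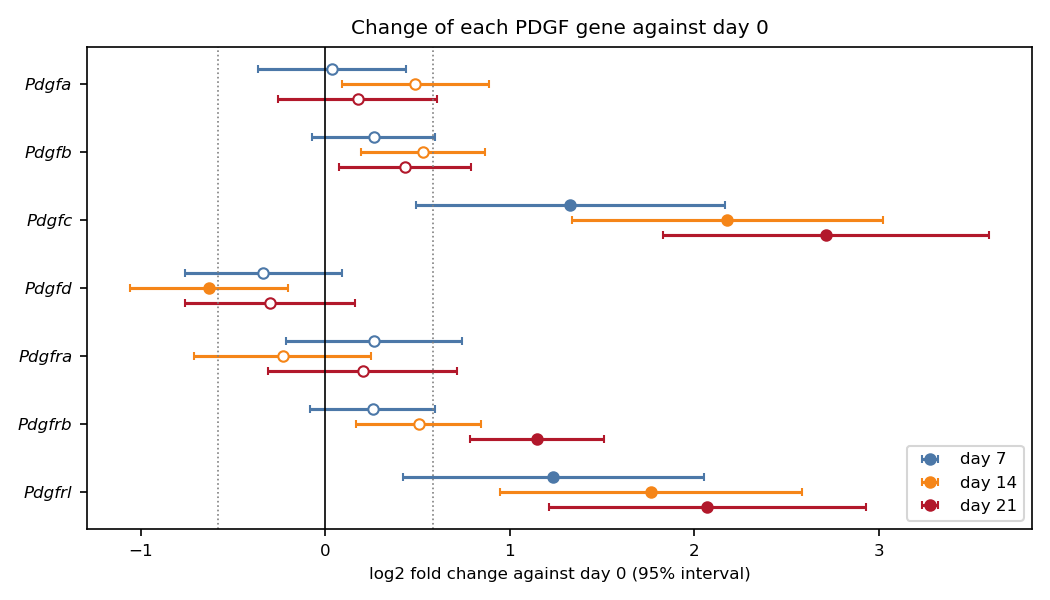
Log2 fold change against day 0 (horizontal axis) of the 7 PDGF genes at days 7, 14 and 21, with 95% intervals from the edgeR fit. Filled points passed both thresholds and dotted lines mark a fold of 1.5 up or down; Pdgfc and Pdgfrl are filled at each day, Pdgfd at day 14 and Pdgfrb at day 21.

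Between the later days, 2 of the 7 genes changed from day 7 to day 21, where 9.54% of all genes tested were called. Pdgfrb rose by 0.89 on the log2 scale (SE 0.17, adjusted p = 0.00574), with every day 21 library above every day 7 library, as in 14.6% of all genes tested. The Pdgfrb call was kept when any library was left out (adjusted p up to 0.0313) and lost with glmTreat (adjusted p = 0.247). Pdgfc rose by 1.39 (SE 0.39, adjusted p = 0.0331), and this call was lost without any of the 4 day 7 libraries (adjusted p 0.0584 to 0.0885) or without day 21 replicate 1 (0.99, adjusted p = 0.172). It was also lost with glmTreat (adjusted p = 0.212). Pdgfrl differed by 0.84 (SE 0.39, adjusted p = 0.164).
From day 7 to day 14, edgeR called 0 of the 7 genes, DESeq2 and limma voom likewise 0, and 3 genes had an unadjusted p under 0.05. Over all 17457 genes tested, 6% were called and 4372 had an unadjusted p under 0.05. From day 14 to day 21, edgeR, DESeq2 and limma voom called 0 of the 7 genes, with 1 at an unadjusted p under 0.05. Over all genes tested, 0% were called there by edgeR (1714 genes at an unadjusted p under 0.05), with 106 genes by DESeq2 and 0 by limma voom. The gene at an unadjusted p under 0.05 was Pdgfrb, which differed by 0.64 (SE 0.17, adjusted p = 0.288), and by 0.84 (adjusted p = 0.0213) without day 14 replicate 1.

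Levels of the 7 genes were also set against each other as CPM per kilobase of exon. At day 0, Pdgfra stood first (35.7 ± 3.86 CPM per kb, mean ± SD, n = 4), above Pdgfb (24.3 ± 3.54), Pdgfrb (19.4 ± 1.74) and Pdgfa (16.6 ± 2.46). The ranges of neighbours among the latter 3 overlapped. Pdgfd (8.34 ± 0.665), Pdgfrl (1.25 ± 0.513) and Pdgfc (0.586 ± 0.118) followed, each range apart from the next.
At day 7 the order was the same, with Pdgfra (42.9 ± 11.7) now overlapping Pdgfb (29.2 ± 5.12). At day 14, Pdgfb (35.1 ± 3.76), Pdgfra (30.4 ± 9.90), Pdgfrb (27.5 ± 7.54) and Pdgfa (23.3 ± 5.08) overlapped with their neighbours. At day 21, Pdgfrb (42.8 ± 6.52, n = 3) and Pdgfra (41.0 ± 9.27) overlapped at the top, as did Pdgfra and Pdgfb (32.8 ± 7.93), above Pdgfa (18.7 ± 1.89). Pdgfd (6.76 ± 1.59), Pdgfrl (5.27 ± 2.04) and Pdgfc (3.86 ± 1.59) were the lowest at day 21. The beta receptor thus had a lower mean level than Pdgfra and Pdgfb at day 0 and the highest mean level at day 21, and the ranges of Pdgfd, Pdgfrl and Pdgfc, apart at day 0, overlapped with their neighbours at day 21.

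The balance within receptors and within ligand classes was tested as the log2 ratio of counts in each library, which does not depend on library size. The count ratio of Pdgfra to Pdgfrb was 3.42, 3.96, 2.84 and 3.36 at day 0 and 2.57, 5.51, 2.63 and 3.25 at day 7. It was 2.06, 1.49, 2.102 and 2.44 at day 14 and 1.23, 2.55 and 1.68 at day 21, below all day 0 libraries in 4 of 4 and 3 of 3 libraries. The share of other gene pairs that separate likewise was not computed. Of single genes tested, 14.4% lay below day 0 in every day 14 library. The difference in mean log2 ratio was -0.02 at day 7 (exact two-sided permutation test, p = 0.943), -0.76 at day 14 (exact p = 0.0286, adjusted over the 9 ratio tests 0.0857) and -0.96 at day 21 (exact p = 0.0571, adjusted 0.103). The smallest p that 4 against 4 libraries allow is 0.0286 and that of 3 against 4 is 0.0571, so the day 21 comparison cannot pass 0.05.
The count ratio of Pdgfc to Pdgfd was 0.0878, 0.139, 0.131 and 0.0981 at day 0, 0.503, 0.466, 0.228 and 0.313 at day 7, 2.27, 0.861, 0.346 and 0.356 at day 14 and 1.67, 0.651 and 0.640 at day 21. It was above day 0 in every later library, as Pdgfc alone was. Of single genes tested, 17.6%, 16.8% and 19.4% lay above day 0 in every library of days 7, 14 and 21. The mean log2 ratio was higher by 1.68 (exact p = 0.0286, adjusted 0.0857), 2.63 (exact p = 0.0286, adjusted 0.0857) and 2.97 (exact p = 0.0571, adjusted 0.103) at days 7, 14 and 21. Counts of Pdgfc exceeded those of Pdgfd in 2 of the 15 libraries, day 14 replicate 1 and day 21 replicate 1.
The count ratio of Pdgfa to Pdgfb stayed between 0.370 and 0.606 in all libraries. Its log2 difference from day 0 was -0.25 (exact p = 0.0857, adjusted 0.129), -0.06 (exact p = 0.657, adjusted 0.739) and -0.24 (exact p = 0.171, adjusted 0.220). None of the 9 ratio tests passed 0.05 after adjustment, and 3 had an unadjusted exact p under 0.05. Those 3 were at the smallest p that 4 against 4 libraries allow, so a wider separation could not have given a smaller p.

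**Figure D3:**
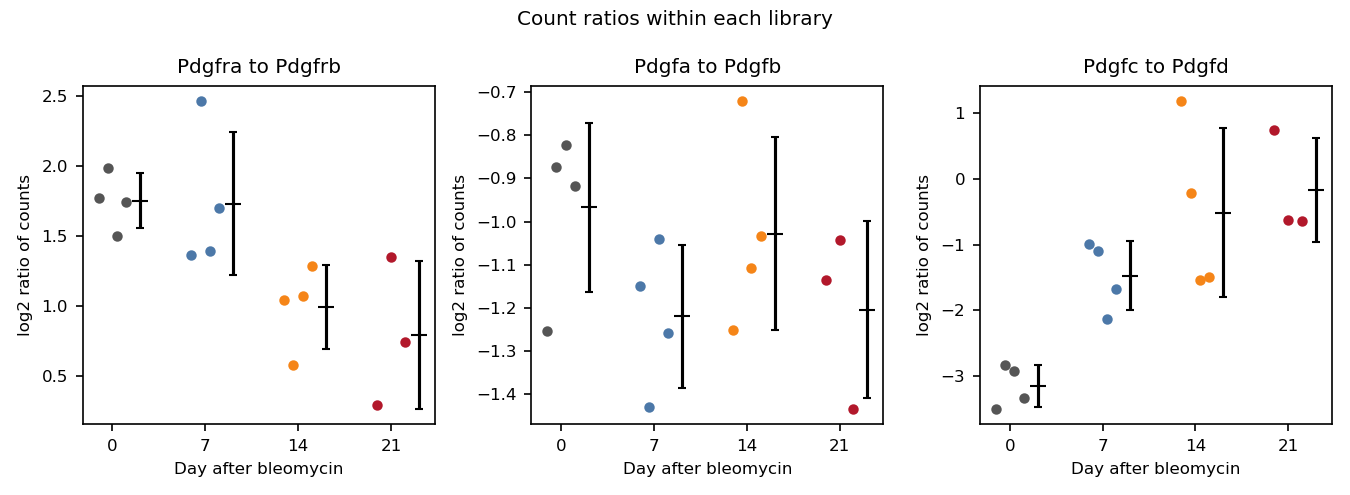
Log2 ratio of counts within each library (vertical axis) by day after bleomycin for Pdgfra to Pdgfrb, Pdgfa to Pdgfb and Pdgfc to Pdgfd. Points are libraries and the black bars are the mean and SD; the axes do not start at 0 and differ between panels. Pdgfra to Pdgfrb lay below its day 0 values in all libraries of days 14 and 21, and Pdgfc to Pdgfd lay above its day 0 values in all later libraries. The share of other gene pairs that separate likewise was not computed.

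Genes that act around the ligands were taken from lists of known PDGF biology. Of 9 processing proteases and their serpin inhibitors, 3 rose at day 7, 8 at day 14 and 6 at day 21 and none fell at these days, beside 8.78%, 12% and 12.4% of all genes tested called higher. Their median log2 fold change was 0.70, 0.99 and 1.37, against 0.01, 0.02 and 0.02 over all genes tested. Plau, the urokinase that can cut PDGF-D, rose from 6.44 ± 2.40 CPM (SD, n = 4) at day 0 to 39.6 ± 15.04 (n = 3) at day 21, with log2 fold changes of 2.02, 2.34 and 2.62 (adjusted p = 0.000637, 9.31e-05 and 6.96e-05). Serpine2, a serpin that inhibits plasminogen activators, rose by 1.29, 1.67 and 2.11 at days 7, 14 and 21 (adjusted p = 0.00414, 0.000387 and 0.000116). The convertases Pcsk5 and Pcsk6 rose by 1.11 and 0.87 at day 14 and by 1.53 and 1.37 at day 21. Plat, the tissue plasminogen activator that frees PDGF-C from its CUB domain, was called at day 14 (0.99, adjusted p = 0.0169). St14 and Furin were also called, and Pcsk7 was not.

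Of 5 proteins that bind PDGF or its receptors, 4 were tested (Pzp had too few counts), and 2, 3 and 3 of them rose at days 7, 14 and 21 (8.78%, 12% and 12.4% of all genes tested), with a median log2 fold change of 0.60, 1.01 and 1.27. Sparc, a matrix protein that binds PDGF-B, rose by 1.34 at day 14 (adjusted p = 1.34e-05) and 1.52 at day 21 (adjusted p = 1.22e-05). Lrp1, an endocytic co-receptor of the beta receptor, rose by 0.64, 0.69 and 1.03 (adjusted p = 0.0287, 0.0159 and 0.00215). A2m, a protease inhibitor that carries PDGF, was called higher at each day, from 2 to 7 counts in the day 0 libraries to 70 to 77, 28 to 240 and 68 to 102 counts at days 7, 14 and 21, which is too few at day 0 for a stable fold. Nrp1 was not called.

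The adaptors and enzymes that receptors recruit inside the cell, and the phosphatases and Sprouty proteins that damp the signal, were counted next. Of 22 receptor-proximal adaptors and enzymes, 1 was called at each day, Plcg1 at day 7 (-0.68, adjusted p = 0.00226) and Stat5b at days 14 and 21 (-0.62 at both, adjusted p = 0.000751 and 0.00157), against 16.1%, 23.1% and 22.5% of all genes tested. Of 11 negative regulators, 1, 2 and 4 rose, beside 8.78%, 12% and 12.4% of all genes tested, and Spry2 fell at day 21 (-0.74, adjusted p = 0.00467). Those that rose were the phosphatase gene Ptpn2 at day 7 (0.65), the ERK phosphatase gene Dusp6 (0.62) and Spry4 (0.92) at day 14, and Ptpn1 (0.59), Ptprj (0.64), Dusp6 (0.62) and Spry4 (0.81) at day 21.

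Relatives of the PDGF system were counted the same way, beside 16.1%, 23.1% and 22.5% of all genes tested called at the 3 days. In all, 2, 3 and 2 of the 7 class III genes and 1, 2 and 2 of the 5 VEGF and PlGF genes were called. Of 7 other class III receptor kinases and their ligands, Flt3 rose at day 7 (0.91), Csf1r at day 14 (0.63) and Csf1, the macrophage growth factor, at days 14 and 21 (0.63 and 0.64), while Flt3l fell at all 3 days (-2.01, -1.66 and -1.55). Of 5 VEGF and PlGF ligands, whose fold resembles that of PDGF, Pgf rose by 1.48, 2.21 and 2.57 (adjusted p = 0.00421, 0.000121 and 6.58e-05) and Vegfc rose by 0.75 at day 14 and 0.62 at day 21. Vegfa was not called at any of the 3 days.

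**Figure D4:**
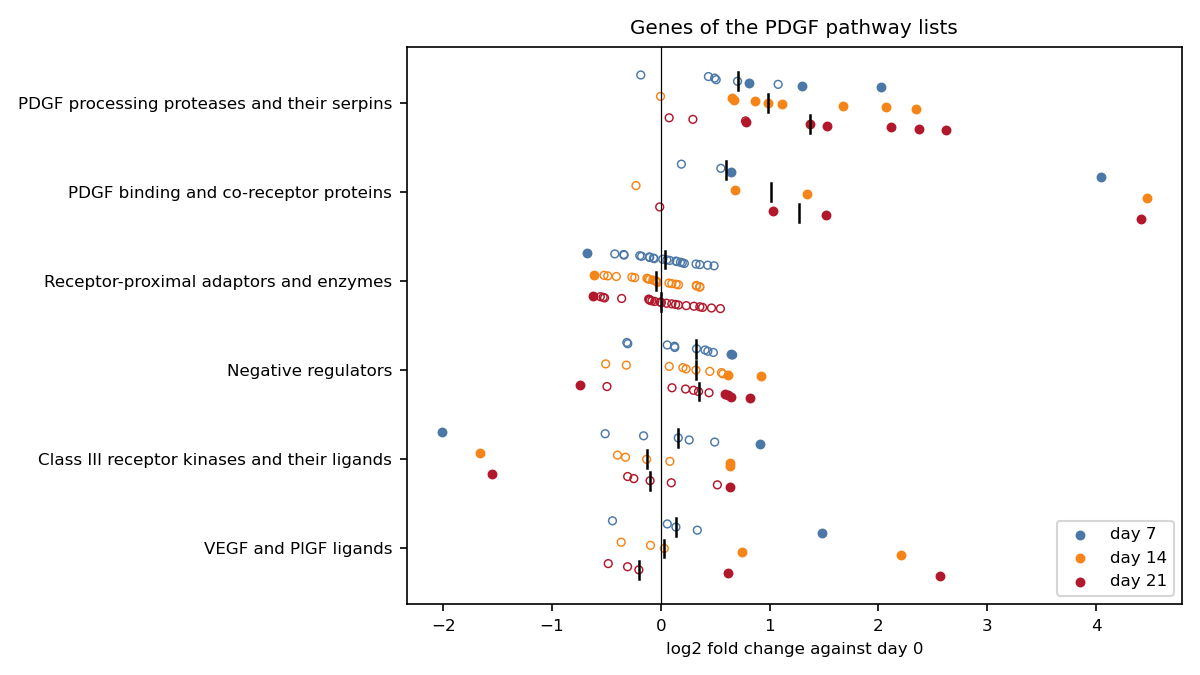
Log2 fold change against day 0 (horizontal axis) of each tested gene in 6 lists (rows) at days 7, 14 and 21. Filled points passed both thresholds and black ticks are list medians; points of the protease and serpin list lie mostly to the right (8 of 9 called at day 14), while 1 of 22 adaptors and enzymes is filled at each day.

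Markers of the cells that make or receive PDGF moved on the same days, and their part in the values above was not tested. The counts that follow stand beside 8.78%, 12% and 12.4% of all genes tested called higher and 7.36%, 11.2% and 10.1% called lower at days 7, 14 and 21. Of 6 fibroblast genes, 5 rose at each day. Dcn was not called against day 0 and was called lower at day 14 than at day 7. The summed level of the 6 genes went from 1109 to 1766 CPM at day 0 to 4723 to 5881 at day 7, 3573 to 12948 at day 14 and 4580 to 9250.2 at day 21. The top of the day 14 range was replicate 1, the library that was also the highest of its day for Pdgfc, Pdgfrb and Pdgfrl and the lowest for Pdgfd, with a mitochondrial share of 2.102% against 3.74% to 4.14% in the others. Of 6 alveolar fibroblast genes, 1, 5 and 5 fell, among them Inmt (-1.65, -3.19 and -3.37 at days 7, 14 and 21) and Tcf21 (-0.90 at day 14 and -1.39 at day 21), and their summed level went from 3333 to 4084 CPM at day 0 to 1111 to 2034 at day 21.
Of 8 pericyte genes, 1 rose and 1 fell at day 7, 2 rose and 2 fell at day 14, and 2 rose and 1 fell at day 21. Their summed level was 184 to 216 CPM at day 0, 177 to 223 at day 7, 148 to 209 at day 14 and 228 to 398 at day 21, so that it lay above day 0 in all 3 day 21 libraries. The median log2 fold change of the 8 genes at day 21 was 0.18. Cspg4 (NG2) rose by 1.79 and Rgs5 by 2.82 at day 21, while Cox4i2 fell by 0.66 at that day. Of 6 smooth muscle genes, 1, 2 and 3 rose, led by Acta2 (1.46, 1.87 and 1.74), and their summed level went from 270 to 367 CPM at day 0 to 363 to 988 at day 21.
Of 6 macrophage genes, 3, 4 and 3 rose and Siglecf fell at day 21, with a summed level of 246 to 280.3 CPM at day 0 and 339 to 487, 507 to 899 and 355 to 644 at days 7, 14 and 21. Of 6 endothelial genes, 2, 3 and 1 fell, and of 6 platelet genes, 2, 4 and 2 fell and Pf4 rose at day 21. Their summed levels at day 0 and day 21 were 2440.2 to 2908 and 1701 to 2055 CPM for the endothelial genes and 46.9 to 82.2 and 39.4 to 73.6 CPM for the platelet genes. Among the remaining lists, alveolar epithelial genes fell in 1, 3 and 5 of 6, airway genes in 1, 3 and 1 of 3 tested, and adipocyte genes in 1, 3 and 2 of 4 tested. Of 4 mesothelial genes Msln rose at days 14 and 21, and of 5 cardiac muscle genes Myh6 fell at day 14. The summed cardiac level was 15.2 to 250.01 CPM in 13 libraries, 586 in day 7 replicate 4 and 699.9 in day 21 replicate 1. Day 21 replicate 1 was also the highest of its day for Pdgfc, Pdgfrb and Pdgfrl, and without it their day 21 values were 2.30, 0.99 and 1.72 (adjusted p = 0.00170, 0.00181 and 0.0106), all still called.

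Genes whose log2 CPM followed each member most closely were listed as a description, with Pearson's r over the 15 libraries among 11803 genes with a mean of at least 5 CPM, and with no p. The libraries share a day within groups, so r reflects days as well as single libraries. Pdgfc was close to Loxl2 (r = 0.980), a collagen cross-linking enzyme, and Mrc1 (0.973), the mannose receptor. Pdgfrl was nearest to Col5a3 (0.966), a collagen chain, then to Pdgfc itself (0.959) and Oaf (0.958). The r of Pdgfc and Pdgfrl was 0.887 after each day's mean was taken away, so the 2 genes also moved together among libraries of a day. They shared the order of libraries at days 14 and 21. At day 7 the order differed, with Pdgfc lowest in replicate 3 (5.38 CPM) and Pdgfrl in replicate 2 (7.30 CPM).
Pdgfrb was nearest to Sncg (0.932), Scube1 (0.931) and Prkacb (0.923), and Pdgfra to Dip2c (0.940), Trappc10 (0.903) and Garem1 (0.901). Pdgfd was nearest to Itga1 (0.929), an integrin chain, Smarca2 (0.913) and Tbx3 (0.906). Pdgfb was nearest to Plxnd1 (0.900), a semaphorin receptor, Gna12 (0.881) and Cd200r4 (0.866), and Pdgfa to Bfar (0.868), Qdpr (0.836) and Fabp5 (0.822). Within days, Pdgfa and Pdgfra ran opposite to each other (r = -0.75 after each day's mean was taken away, -0.76 before), and day 14 replicate 2 and day 7 replicate 2 showed it most plainly, the former with the highest Pdgfa and lowest Pdgfra of all libraries and the latter with the lowest Pdgfa and highest Pdgfra.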

How the data were processed

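Values were taken from 1 table of raw counts. The authors prepared libraries with a NEBNext Ultra kit, trimmed paired reads with TrimGalore, aligned them to mm10 with HISAT2 2.1.0, left out multi-mapped reads, and deposited counts per Ensembl gene from HTSeq 0.6.0, with no normalization. The annotation release and strand setting of the counting are not given in the sources used here. GENCODE M21 matched 33267 of 33340 identifiers, and 450 genes had no count.

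Counts were tested with edgeR 4.0.16 in R 4.3.3 (filterByExpr on day, TMM, glmQLFit and glmQLFTest, all 15 libraries in 1 fit, Benjamini-Hochberg over 17457 genes). The thresholds were those of the study, adjusted p under 0.05 and fold over 1.5. Ratios of counts (0.5 added to each) were compared with exact two-sided permutation tests in SciPy 1.17.1. The scripts were checked on simulated counts. Alternatives were DESeq2 1.42.0, limma voom (limma 3.58.1), other scalings, filters and thresholds, a replicate block, the mitochondrial share, and leaving out each library.

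All 7 members are named, and of each list up to 6 called genes with the largest change at any day, besides markers. Other genes named as not called or as the rest of a list were added after their values were seen. Likeness names leave out predicted genes and immune receptor segments. A few genes that the rule names are not reported here. The members, lists and tests were chosen with earlier results of these data known. No 2 libraries of a day agreed within sampling noise. The count totals limit precision for genes with few counts, and the spread between libraries exceeds counting error.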

Additional observations from a re-analysis of the deposited data

How the results depend on the processing

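The call count among the 7 PDGF genes at day 21 against day 0 was 3 under every alternative run. Over all genes tested, the 3924 calls at day 21 became 1755 with glmTreat and 5205 with no fold threshold. At day 7 the count of 2 became 1 with limma voom and among libraries with a mitochondrial share under 2.5%, and 0 with glmTreat (which tests for a fold over 1.5) and with the mitochondrial covariate, and it was 0 to 2 when a library was left out. The 2818 calls over all genes at day 7 became 2702 with limma voom, 703 with glmTreat and 1269 with the covariate. Among libraries with a share under 2.5% they were 2139 of 16708. At day 14 the 3 became 5 with no fold threshold (adding Pdgfb and Pdgfrb) and 2, losing Pdgfd, with glmTreat and among libraries with a mitochondrial share over 3.5%, and ranged from 2 to 4 with a library left out. The 4040 calls over all genes at day 14 became 5786 with no fold threshold and 1755 with glmTreat. Among libraries with a share over 3.5% they were 2990 of 16938. From day 7 to day 21 the 2 became 0 with glmTreat and ranged from 1 to 2 with a library left out, and from day 14 to day 21 the 0 ranged from 0 to 1. Calls over all genes from day 7 to day 21 went from 1665 to 176 with glmTreat. With the replicate block the counts against day 0 were 2, 3 and 3 and between later days 0, 2 and 0, as without it. The replicate numbers were not taken to pair the samples. Of 21 same-number pairs, 8 had a correlation of deviations over 0.1 (range -0.24 to 0.40). Pairs of different numbers were not computed, so this check cannot exclude a pairing. With the mitochondrial covariate the sign turned for Pdgfra at day 7 (-0.028) and, from day 7 to day 21, for Pdgfa (-0.057) and Pdgfra (0.26), none of them called. Leaving out a library turned the sign of uncalled values in these ranges: Pdgfa at day 7 (-0.12 to 0.17), Pdgfra at day 21 (-0.031 to 0.30), Pdgfb (-0.072 to 0.26), Pdgfd (-0.19 to 0.15) and Pdgfra (-0.28 to 0.13) from day 7 to day 21, Pdgfrl from day 14 to day 21 (-0.031 to 0.77), the Pdgfra to Pdgfrb ratio at day 7 (-0.27 to 0.10) and the Pdgfa to Pdgfb ratio at day 14 (-0.16 to 0.013). The other ratios kept their direction when a library was left out, when 5 was added to each count and with medians in place of means. The causes were not tested.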
